A study of Mus musculus with 12 samples.

Results

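Nr2f1 and Nr2f2 encode the COUP-TF nuclear receptors, and their transcripts were followed in cells of 2 embryonic origins sorted from the embryonic cortex. Members were the probe sets with either symbol as their single gene symbol. These were 7 of the 22339 probe sets that carry 1 symbol in the table, for 2 of its 11358 genes. Nr2f1 had 1 probe set and Nr2f2 had 6.

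Interneurons of the cerebral cortex are born in the ventral telencephalon and migrate into the cortex. Those from the medial ganglionic eminence (MGE) give rise mainly to parvalbumin and somatostatin cells, and those from the caudal ganglionic eminence (CGE) to vasoactive intestinal peptide, reelin and related cells. COUP-TFs are orphan nuclear receptors that bind direct repeats of an AGGTCA-like hexamer and often repress transcription. In the mouse, Nr2f2 (COUP-TFII) is used as a mark of the caudal eminence and of caudally migrating interneurons, and Nr2f1 (COUP-TFI) acts both in cortical area patterning and in interneuron specification.

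There were 4 groups of 3 arrays: CGE cells of E18.5 and of E16.5, and MGE cells of E18.5 and of E14.5. All cells were sorted by fluorescence from dissected embryonic cortex of mice on a mixed C57BL/6/CBA background. CGE cells came from Nkx2-1-Cre;Dlx1-lox-Venus-lox embryos, in which Cre removes the Venus reporter from the Nkx2-1 lineage, so that the Venus-positive cells descend from other Dlx1-expressing progenitors, lateral as well as caudal. MGE cells came from embryos with the Nkx2-1-Cre transgene (Tg) and the R26R-YFP reporter (fl/fl), in which cells of every type that pass through Nkx2-1 expression keep YFP, and both crosses carry the same Cre. The dissected cortices were pooled, the titles call the arrays of a group biological replicas, and how many embryos stand behind each array is not stated. The values are deposited log2 intensities, which can be compared between arrays within a probe set but not between probe sets, and the number of arrays limits the precision of every value below.

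The markers of both lineages went with the labels, and several further marker sets moved with groups or arrays. The mean of the 5 CGE interneuron markers (Sp8, Prox1, Htr3a, Adarb2, Npas1) lay at 10.44 to 10.93 in CGE E18.5 arrays and 10.93 to 11.32 in CGE E16.5 arrays, against 6.74 to 7.02 in MGE E18.5 arrays and 6.03 to 6.20 in MGE E14.5 arrays. That of the 4 measured MGE markers (Lhx6, Sox6, Maf, Sst) lay at 9.45 to 10.16 in CGE E18.5 and 9.80 to 10.67 in CGE E16.5 arrays, against 11.31 to 11.58 in MGE E18.5 and 12.19 to 12.37 in MGE E14.5 arrays. The mean of the 7 oligodendrocyte precursor markers, such as Pdgfra and Sox10, lay at 10.89 to 11.65 in MGE E18.5 arrays, 6.66 to 6.98 in MGE E14.5 arrays and at most 5.57 on any CGE array. The mean of the 5 measured lateral eminence markers spread from 8.93 to 10.57 over CGE E18.5 arrays and from 7.97 to 9.53 over CGE E16.5 arrays, and did not exceed 7.42 on MGE arrays. The 6 measured radial glia and astrocyte markers averaged 8.17 to 8.54 in CGE E18.5, 7.44 to 7.72 in CGE E16.5, 9.75 to 10.07 in MGE E18.5 and 7.44 to 8.20 in MGE E14.5 arrays. The 3 measured endothelial and mural markers (Flt1, Rgs5 and Cspg4) averaged 7.74 to 8.02 in MGE E18.5 arrays and 5.20 to 6.33 on all others. Cspg4 is also among the 7 oligodendrocyte precursor markers, so these sets are not separate. The mean of the 3 measured Cajal-Retzius markers (Reln, Calb2 and Ebf3) was lower at E18.5 than at the earlier day in both lineages. It lay at 5.41 to 6.52 against 6.87 to 7.31 in CGE arrays, and at 6.03 to 6.46 against 6.71 to 6.96 in MGE arrays. Reln is also a gene of the CGE-derived reelin cells named above, and only 1 of the 3 was tested. The 2 measured microglia markers averaged 6.01 to 7.54 in CGE E18.5 and 4.18 to 5.42 in CGE E16.5 arrays, and 5.68 to 6.35 in MGE E18.5 and 3.80 to 4.57 in MGE E14.5 arrays. The 6 measured pallial neuron markers averaged 5.11 to 5.94 in CGE E18.5 and 6.15 to 6.69 in CGE E16.5 arrays. They averaged 5.33 to 6.11 in MGE E18.5 and 5.82 to 6.62 in MGE E14.5 arrays. Only 2 of the pallial markers were tested, with 0 called in any comparison, and their part in the differences below was not tested. In bulk RNA of sorted cells, fewer cells of a type and less RNA per cell cannot be told apart.

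Because all differences below concern RNA levels of these 2 genes, the bases just upstream of their annotated starts are shown, so that the 2 loci can be compared as sequence. Both windows are 250 bases upstream of a RefSeq start on the minus strand of GRCm38.p6, at chr7:70366747-70366996 for Nr2f2 and chr13:78198874-78199123 for Nr2f1, and capitals mark a GC box (GGGCGG, here on the opposite strand):
Nr2f2: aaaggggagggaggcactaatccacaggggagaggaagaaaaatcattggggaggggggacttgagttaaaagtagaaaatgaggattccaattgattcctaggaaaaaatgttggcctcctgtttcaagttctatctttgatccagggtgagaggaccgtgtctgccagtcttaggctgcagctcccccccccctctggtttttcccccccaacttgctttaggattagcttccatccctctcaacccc
Nr2f1: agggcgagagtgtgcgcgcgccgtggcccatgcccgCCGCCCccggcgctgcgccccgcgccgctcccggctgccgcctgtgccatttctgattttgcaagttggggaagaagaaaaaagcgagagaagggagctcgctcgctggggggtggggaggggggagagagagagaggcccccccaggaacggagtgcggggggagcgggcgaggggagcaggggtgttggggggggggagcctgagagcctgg
The Nr2f1 window held 72.0% G and C and 22 CpG dinucleotides, and the Nr2f2 window 50.0% and 1, where the median of 32851 mouse promoter windows of this length was 52.4% and 6. The GC box was present in the Nr2f1 window, as in 32.7% of all windows, and its letters were not in the Nr2f2 window. The letters of the nuclear receptor hexamer AGGTCA (14.0% of windows) and of the homeodomain core TAATTA (4.84%) were in neither window on either strand. A further annotated Nr2f1 start, at chr13:78196450-78196699, had 39.6% G and C and 2 CpG dinucleotides.

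Nr2f2 was higher in CGE than in MGE cells at both ages, and lower at E18.5 than at the earlier day in both lineages. Its brightest probe set, 1416158_at, measured 11.69, 11.39 and 11.75 in CGE E18.5 cells and 12.58, 12.61 and 12.69 in CGE E16.5 cells. It measured 9.25, 8.61 and 9.30 in MGE E18.5 cells and 9.86, 9.61 and 10.02 in MGE E14.5 cells. Every CGE array was above every MGE array, and no neighbouring groups in the order CGE E16.5, CGE E18.5, MGE E14.5, MGE E18.5 overlapped.

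Nr2f1 was also highest in CGE E16.5 cells and lowest in MGE E18.5 cells, over a narrower range. Its probe set, 1418157_at, measured 11.74, 12.01 and 11.89 in CGE E18.5 cells and 12.29, 12.36 and 12.36 in CGE E16.5 cells. It measured 10.90, 10.70 and 10.53 in MGE E18.5 cells and 11.83, 11.88 and 11.92 in MGE E14.5 cells. CGE E18.5 and MGE E14.5 cells overlapped, with means 0.01 apart on the log2 scale, so that Nr2f1 set apart only the highest and the lowest group.

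**Figure D1:**
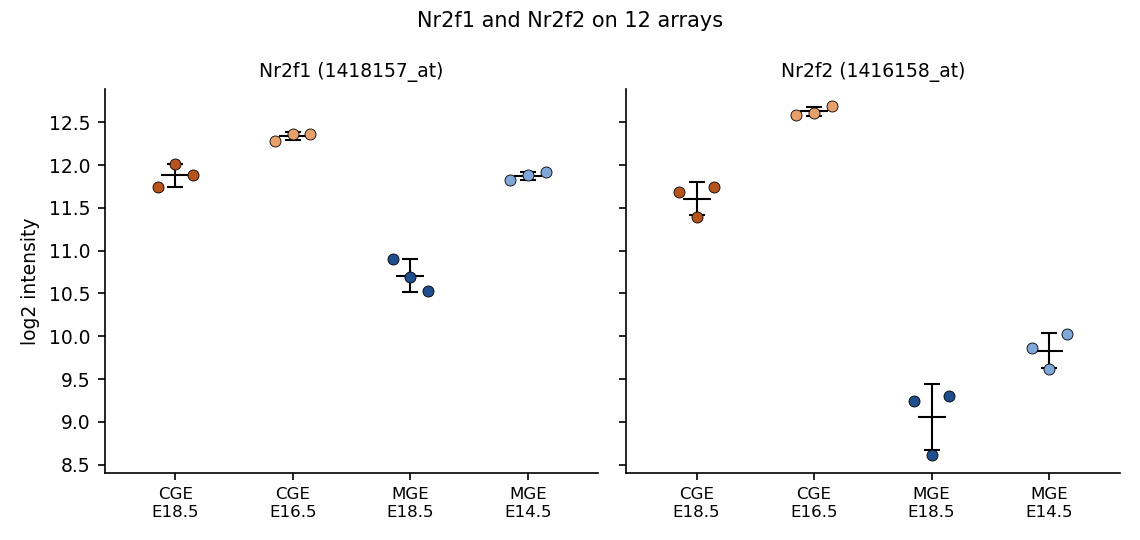
Deposited log2 intensities (y axis) of Nr2f1 and of the brightest Nr2f2 probe set on 12 arrays by group (x axis). Points are arrays, bars the mean and SD of 3 arrays, and the axis does not start at 0. Nr2f2 separates CGE from MGE arrays at both ages, while Nr2f1 in CGE E18.5 cells (mean 11.88) lies level with MGE E14.5 cells (11.87).

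The earlier comparison asked how CGE and MGE cells differed soon after they reached the cortex, with the day (E16.5 against E14.5) differing together with the lineage. Nr2f2 1416158_at averaged 12.63 ± 0.05 in CGE E16.5 cells and 9.83 ± 0.21 in MGE E14.5 cells (SD, n = 3 each), a 6.94-fold difference (95% interval 5.24 to 9.19, limma adjusted p = 2.2e-06). Nr2f1 averaged 12.34 ± 0.04 in CGE E16.5 cells and 11.87 ± 0.04 in MGE E14.5 cells (SD, n = 3 each), a 1.38-fold difference (95% interval 1.15 to 1.66, limma adjusted p = 0.0324). Of the 7 probe sets, 6 passed the filter on low values and were tested, and a call is a limma adjusted p under 0.05 over all 16008 tested probe sets. All 6 were called higher in CGE cells, where 5.48% of tested probe sets were, but 2 of them passed the filter only through CGE E16.5 cells and had to differ, so the count is a description. Over all tested probe sets 17.4% had groups that did not overlap in that direction. The filter needs 3 arrays above its level, and 1416159_at had only 2 such MGE arrays, both of E14.5, so it too needed CGE arrays to pass. From the highest difference down, Nr2f2 1416158_at ranked 78 of 16008 and Nr2f1 ranked 1543. The Nr2f1 call needed all 6 arrays compared: without any 1 of CGE E16.5 replicates 1, 2 and 3 or MGE E14.5 replicates 1, 2 and 3 the log2 difference stayed between 0.44 and 0.49, with limma adjusted p from 0.0622 to 0.123.

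The comparison at E18.5 set both lineages side by side on 1 day. Nr2f2 1416158_at averaged 11.61 ± 0.19 in CGE E18.5 cells and 9.05 ± 0.39 in MGE E18.5 cells (SD, n = 3 each), a 5.88-fold difference (95% interval 4.44 to 7.78, limma adjusted p = 1.5e-06). Nr2f1 averaged 11.88 ± 0.14 in CGE E18.5 cells and 10.71 ± 0.19 in MGE E18.5 cells (SD, n = 3 each), a 2.25-fold difference (95% interval 1.87 to 2.71, limma adjusted p = 2.8e-05). The same 6 were called higher in CGE cells, where 9.66% of tested probe sets were and 18.4% did not overlap in that direction. Of these, 1436475_at and 1444229_at were tested only because CGE E16.5 cells passed them through the filter on low values. Both lay below its level on every array compared here, and 1416159_at and 1416160_at on every MGE E18.5 array, so the count is a description. Both calls were kept on leaving out any 1 array, with log2 differences of 2.33 to 2.68 for Nr2f2 1416158_at and 1.08 to 1.27 for Nr2f1. MGE E18.5 arrays were also those with the highest oligodendrocyte precursor, radial glia and astrocyte, and endothelial and mural marker means, whose part in these differences was not tested. Measured relative to the 7 pan GABAergic genes of each array, such as Gad1 and Slc32a1, the log2 differences were 1.96 for Nr2f2 1416158_at and 0.58 for Nr2f1, both called. That scaling moved the median difference of all tested probe sets to -0.57, from 0.02 on the deposited scale.

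With maturation of CGE cells, both genes fell. Nr2f2 1416158_at fell by 1.02 ± 0.19 on the log2 scale at E18.5 relative to E16.5 (SE, limma adjusted p = 0.0087), and Nr2f1 fell by 0.46 ± 0.12 (SE, limma adjusted p = 0.0347). The same 6, with the limit given for 2 of them, were called lower at E18.5, against 6.32% of all tested probe sets, with 25.7% without overlap in either direction. The Nr2f2 call was kept without any 1 array, with log2 differences of -1.09 to -0.91. The Nr2f1 call was lost without any 1 of CGE E18.5 replicates 1 and 3, CGE E16.5 replicates 1, 2 and 3, MGE E18.5 replicate 2 or MGE E14.5 replicates 1 and 2, with log2 differences of -0.48 to -0.39 (limma adjusted p from 0.0502 to 0.102). The 2 CGE arrays with most lateral eminence signal were replicate 1 of each age, and without both the log2 difference was -0.41 for Nr2f1 (limma adjusted p = 0.0931), while the Nr2f2 1416158_at call was kept.

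With maturation of MGE cells, Nr2f1 fell by 1.17 ± 0.12 on the log2 scale at E18.5 relative to E14.5 (SE, limma adjusted p = 3.7e-05), and Nr2f2 1416158_at fell by 0.78 ± 0.19 (SE, limma adjusted p = 0.0124). Of the members, Nr2f1 and 3 of 5 tested Nr2f2 probe sets were called lower, against 9.18% of all tested probe sets, with 26.9% lower without overlap. Among those called, 1436475_at lay below the level of the filter on every MGE array. Also called, 1416159_at lay below it on every MGE E18.5 array and on MGE E14.5 replicate 2. From the largest fall, Nr2f1 ranked 177 of 16008 and Nr2f2 1416158_at ranked 618. On the same arrays all 7 oligodendrocyte precursor markers were called higher at E18.5 (median log2 difference 4.52) and 6 of 7 pan GABAergic genes lower (median -0.63). All 5 tested radial glia and astrocyte markers (median 2.50) and both tested endothelial and mural markers (median 3.41) were called higher too. Of the endothelial and mural markers, Cspg4 also stood among the 7 oligodendrocyte precursor markers. The part of these sets in the falls of Nr2f1 and Nr2f2 was not tested. Relative to the pan GABAergic genes the fall of Nr2f1 was -0.61 on the log2 scale and was still called (limma adjusted p = 0.0029), while that of Nr2f2 1416158_at was -0.22 and was not (limma adjusted p = 0.406), nor were those of 1416159_at (-0.53, limma adjusted p = 0.0788) and 1436475_at (-0.33, limma adjusted p = 0.0961). That scaling moved the median MGE maturation difference of all tested probe sets to 0.48, from -0.07 on the deposited scale.

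**Figure D2:**
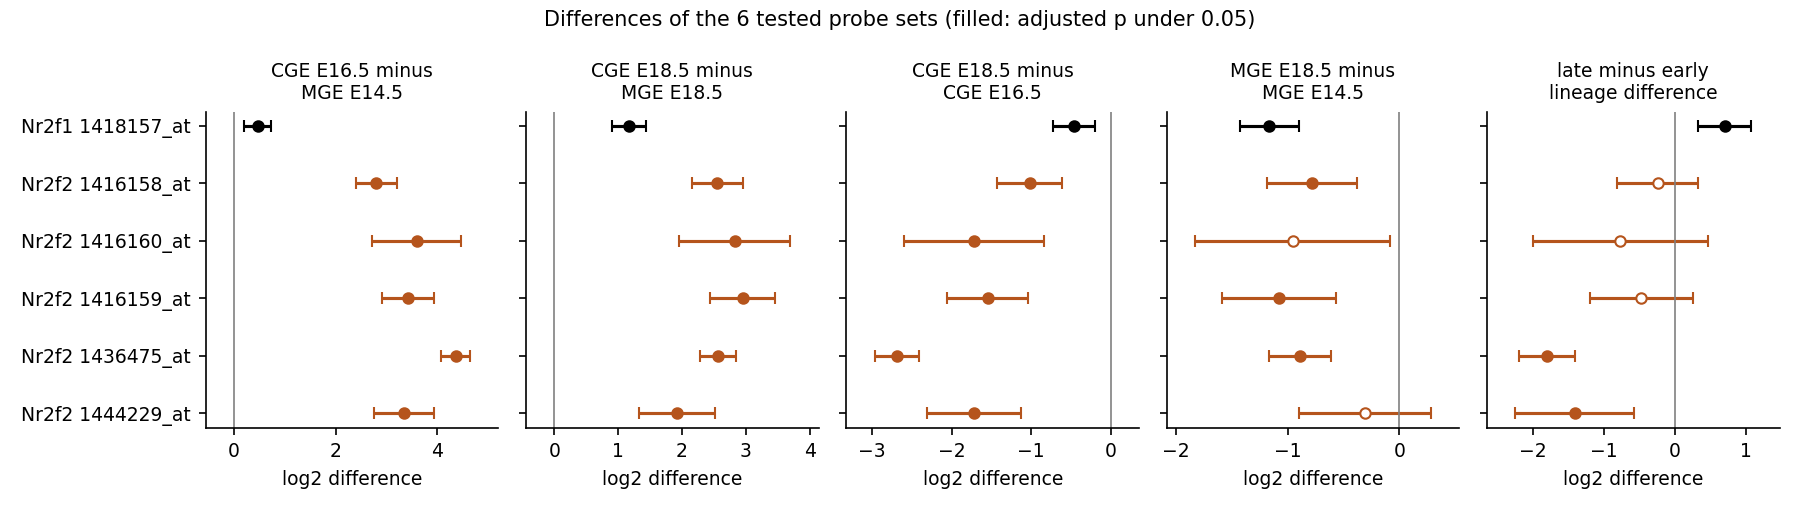
Log2 differences (x axis) of the 6 tested COUP-TF probe sets (y axis) in the 5 comparisons, with 95% intervals from limma. Black is Nr2f1, orange is Nr2f2, filled points were called at adjusted p under 0.05, and each panel has its own scale. In the earlier comparison Nr2f1 lies at 0.46 and the Nr2f2 probe sets between 2.80 and 4.36.

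The CGE minus MGE difference of Nr2f1 was larger at E18.5 than between the earlier days. That of the brightest Nr2f2 probe set was not shown to change. CGE cells were followed from E16.5 and MGE cells from E14.5, so the interval to E18.5 was longer in MGE cells. A change of the lineage difference cannot be told apart from this longer interval, here and for the genes below. For Nr2f1 the difference between CGE and MGE cells was larger by 0.71 ± 0.17 on the log2 scale at E18.5 than at the earlier days (SE, limma adjusted p = 0.0236), where 2.60% of tested probe sets were called in that direction. The call was lost without MGE E18.5 replicate 3, MGE E14.5 replicate 1 or MGE E14.5 replicate 2, with values of 0.62 to 0.73 (limma adjusted p from 0.0521 to 0.0632), and relative to the pan GABAergic genes the value was 0.25 (limma adjusted p = 0.309). That scaling moved the median change of all tested probe sets to -0.48, from -0.02. On the deposited scale the change for Nr2f2 1416158_at was -0.24 ± 0.26 (SE, 95% interval -0.81 to 0.33, limma adjusted p = 0.644).

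The 2 genes were also set against each other on the same arrays. Cross-hybridisation between probe sets of the 2 paralogs was not checked. The log2 level of Nr2f2 1416158_at minus that of Nr2f1 was 2.33 higher in CGE E16.5 than in MGE E14.5 cells and 1.38 higher in CGE E18.5 than in MGE E18.5 cells. It was 0.56 lower in CGE E18.5 than in CGE E16.5 cells, and in these 3 comparisons the groups did not overlap. Each gave p = 0.1 in a two-sided exact permutation test, the smallest p that 3 arrays against 3 allow, so none could pass 0.05. It was 0.39 higher in MGE E18.5 than in MGE E14.5 cells, with overlapping groups (exact permutation p = 0.3).

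The other 5 Nr2f2 probe sets repeated the order CGE E16.5, CGE E18.5, MGE E14.5, MGE E18.5 in their means, with no overlap between neighbouring groups. This was narrowly so between the MGE groups of 1444229_at and 1431237_at. The CGE groups of 1431237_at were also narrowly apart, with a lowest value of 6.01 in CGE E16.5 and a highest of 5.99 in CGE E18.5 cells. Probe set 1416159_at measured 9.41, 8.89 and 9.63 in CGE E18.5 cells, 10.67, 10.80 and 11.11 in CGE E16.5 cells, 6.57, 6.29 and 6.20 in MGE E18.5 cells and 7.43, 7.02 and 7.86 in MGE E14.5 cells. Probe set 1416160_at measured 9.25, 8.47 and 10.39 in CGE E18.5 cells, 10.55, 11.19 and 11.52 in CGE E16.5 cells, 6.26, 6.48 and 6.89 in MGE E18.5 cells and 7.54, 7.25 and 7.70 in MGE E14.5 cells. These 2 and 1416158_at are annotated to the same transcript record, so they are repeated readings of 1 transcript rather than replicates. The spread within CGE E18.5 cells was wider for 1416160_at than for the others, and replicate 2 was the lowest CGE E18.5 array for every Nr2f2 probe set but 1436475_at.

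Probe set 1436475_at, annotated to a different record, showed a larger gap between the CGE ages than the other Nr2f2 probe sets. It measured 6.73, 6.82 and 6.49 in CGE E18.5 cells, 9.28, 9.38 and 9.45 in CGE E16.5 cells, 4.12, 3.98 and 4.26 in MGE E18.5 cells and 4.98, 4.88 and 5.16 in MGE E14.5 cells. Probe set 1444229_at measured 5.93, 5.72 and 6.73 in CGE E18.5 cells, 7.55, 8.41 and 7.57 in CGE E16.5 cells, 4.40, 4.16 and 4.05 in MGE E18.5 cells and 4.53, 4.40 and 4.60 in MGE E14.5 cells. Both lay above the filter level, the 40th percentile of each array (7.10 to 7.17), only in CGE E16.5 cells, so they passed the filter through the group in which they were high and had to differ. As a description, the mean of 1436475_at was 6.68 in CGE E18.5 cells, below the filter level, and 9.37 in CGE E16.5 cells. Probe set 1431237_at never reached the filter level and was not tested. It measured 5.64, 5.46 and 5.99 in CGE E18.5 cells, 6.38, 6.53 and 6.01 in CGE E16.5 cells, 5.13, 5.10 and 5.10 in MGE E18.5 cells and 5.15, 5.28 and 5.14 in MGE E14.5 cells.

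The size of the Nr2f2 differences depended on the probe set. In the earlier comparison the log2 differences were 2.80, 3.42 and 3.59 for 1416158_at, 1416159_at and 1416160_at, and 4.36 and 3.33 for 1436475_at and 1444229_at. At E18.5 they were 2.55, 2.95, 2.82, 2.56 and 1.92 in the same order. The lineage difference was smaller at E18.5, with a change of -1.80 for 1436475_at and of -1.41 for 1444229_at, in a direction called for 6.65% of tested probe sets, while those of 1416159_at (-0.47 ± 0.33) and 1416160_at (-0.76 ± 0.57) were not called. Both values are descriptions, since the group in which these probe sets were high admitted them. Their MGE levels were at most 5.16 and 4.60, well below the filter level, and whether a floor of the probe sets bears on these values was not tested. In MGE maturation 1416160_at and 1444229_at were not called (log2 differences -0.96 and -0.31), and the first of these was called without CGE E18.5 replicate 3 (-0.96, limma adjusted p = 0.0354). The CGE maturation call of 1416160_at (-1.72, limma adjusted p = 0.0211) was lost without CGE E18.5 replicate 2, CGE E16.5 replicate 2 or CGE E16.5 replicate 3, with values of -1.67 to -1.27 (limma adjusted p from 0.0548 to 0.0863).

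**Figure D3:**
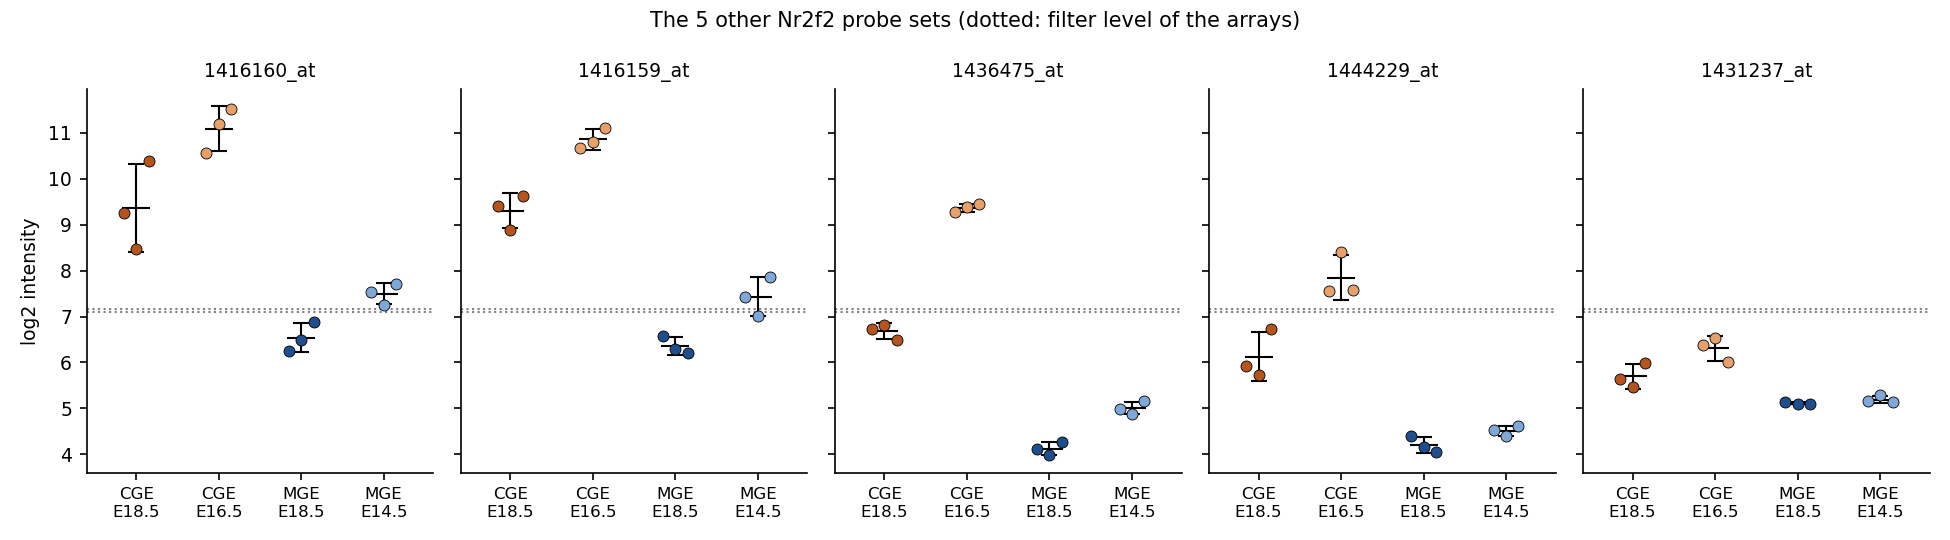
Deposited log2 intensities (y axis) of the 5 Nr2f2 probe sets other than the brightest, by group (x axis). Points are arrays, bars the mean and SD of 3 arrays, and dotted lines the lowest and highest filter level of the 12 arrays (7.10 and 7.17). 1436475_at and 1444229_at pass these lines only in CGE E16.5 cells, and 1431237_at stays below them everywhere.

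Over the 12 arrays, which share their 4 groups, the Nr2f2 probe sets correlated with each other at Pearson r of 0.917 to 0.989 and with Nr2f1 at 0.711 to 0.844. The gene whose pattern was most like Nr2f2 1416158_at among 8794 others was Cbln2, a secreted synaptic organiser (r = 0.984), followed by Ifitm2 (0.977), Ube2ql1 (0.977), Rwdd3 (0.976) and Htr3a (0.973), the serotonin receptor subunit that marks CGE-derived interneurons. Cbln2 averaged 7.41 in CGE E18.5, 9.02 in CGE E16.5, 4.44 in MGE E18.5 and 5.45 in MGE E14.5 cells. It came first for 5 of the 6 Nr2f2 probe sets. The exception was 1436475_at, for which the related receptor Nr2e1 came first (0.981) and the Notch ligand Jag1 next (0.969). The genes most like Nr2f1 were others and less close: Igsf3 (0.953), the tetraspanin Tspan5 (0.951), Rbpj, the DNA-binding effector of Notch signalling (0.943), Cradd (0.942) and Ccdc88c (0.941). These values are descriptions over arrays of 4 groups.

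Of the 12 annotated genes nearest to the 2 members (3 on each side of each), 3 were in the table, all noncoding. A830082K12Rik, which overlaps the Nr2f1 locus in the annotation, measured 8.44, 8.52 and 8.19 in CGE E18.5 cells, 9.27, 9.20 and 9.55 in CGE E16.5 cells, 8.06, 8.02 and 8.06 in MGE E18.5 cells and 9.12, 9.38 and 9.13 in MGE E14.5 cells. It was thus low at E18.5 in both lineages and differed little between lineages. It fell by 0.96 ± 0.13 with CGE maturation (SE, limma adjusted p = 0.0029) and by 1.16 ± 0.13 with MGE maturation (SE, limma adjusted p = 8.7e-05), and neither lineage difference was called (0.13 and 0.33 on the log2 scale). Its other tested probe set, 1419990_at, gave -0.52 (not called) and -0.75 (called) for the 2 maturation differences.

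Gm38604, on the other side of Nr2f1, measured 6.69, 5.37 and 6.60 in CGE E18.5 cells, 7.34, 7.96 and 7.73 in CGE E16.5 cells, 5.23, 5.08 and 5.28 in MGE E18.5 cells and 7.15, 6.98 and 7.67 in MGE E14.5 cells. It passed the filter through the earlier groups alone, with no array above the filter level at E18.5, so its age differences (-1.46 on the log2 scale in CGE and -2.07 in MGE cells) are descriptions. The CGE and MGE groups overlapped at the earlier days and not at E18.5.

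B130024G19Rik, which overlaps the Nr2f2 locus, stayed below the filter level and was not tested. It measured 5.10, 4.32 and 4.80 in CGE E18.5 cells, 5.85, 6.12 and 6.47 in CGE E16.5 cells, 4.18, 4.13 and 4.25 in MGE E18.5 cells and 4.26, 4.21 and 4.16 in MGE E14.5 cells, so that CGE E16.5 cells were the highest, as for Nr2f2, and the 2 MGE groups overlapped. Which strand and which part of an overlapping locus each probe set reads was not checked, so signal of overlapping genes cannot be told apart here.

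**Figure D4:**
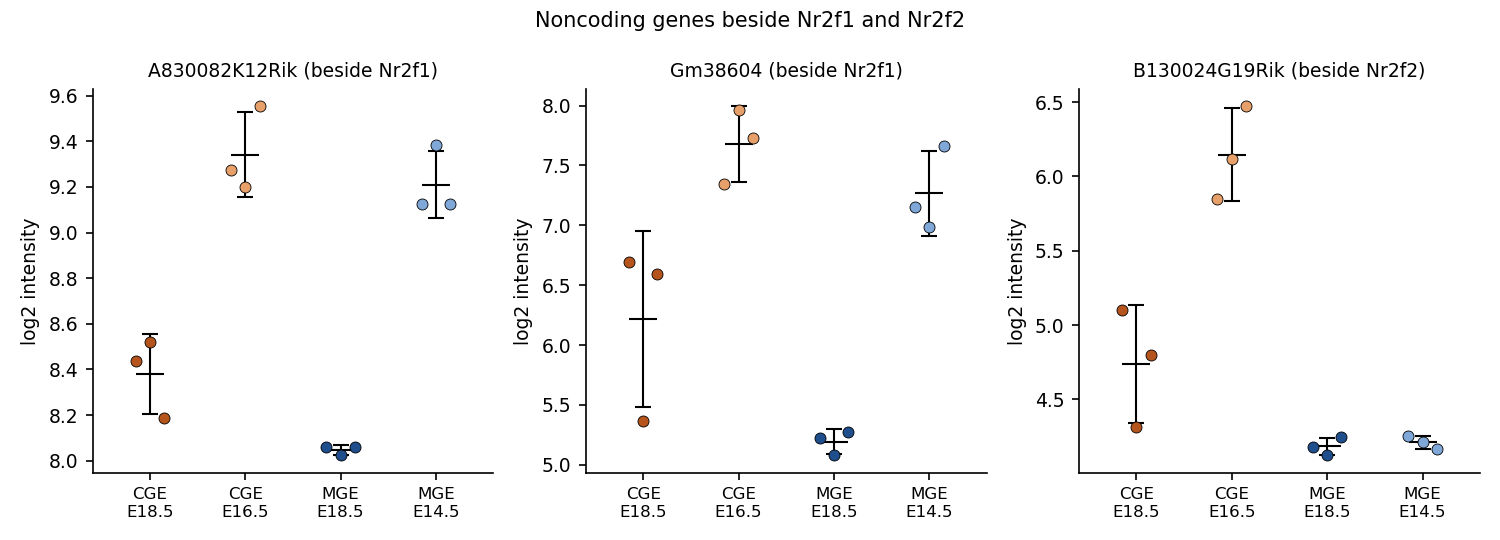
Deposited log2 intensities (y axis, a scale for each panel) of the 3 noncoding neighbours of Nr2f1 and Nr2f2 by group (x axis). Points are arrays and bars the mean and SD of 3 arrays. A830082K12Rik averages 8.38 in CGE E18.5 and 8.05 in MGE E18.5 cells, against 9.34 in CGE E16.5 and 9.21 in MGE E14.5 cells.

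Of the other receptors of the NR2 family, 4 of 5 were in the table and tested. Nr2e1 (Tlx), which keeps neural progenitors undifferentiated, measured 9.72, 9.95 and 9.63 in CGE E18.5 cells, 10.50, 10.36 and 10.69 in CGE E16.5 cells, 8.45, 8.56 and 8.66 in MGE E18.5 cells and 8.77, 9.07 and 9.03 in MGE E14.5 cells. It was called higher in CGE cells in the earlier comparison (1.56 ± 0.13) and at E18.5 (1.21 ± 0.13), and lower with CGE maturation (-0.75 ± 0.13, SE), though its other probe set did not pass there (-0.61). Nr2c2 and Nr2f6 (COUP-TF gamma) were called in no comparison. Nr2c1 was called only in MGE maturation (-0.50 ± 0.13, SE), and this call was lost without MGE E18.5 replicates 2 or 3 or MGE E14.5 replicates 1 or 2 (-0.49 to -0.38, limma adjusted p from 0.0546 to 0.0977) and turned to 0.056 relative to the pan GABAergic genes. Over genes by their brightest probe set, 5.74% of 8795 were called higher in CGE cells in the earlier comparison and 9.58% at E18.5, 4.04% and 12.8% lower, and 9.02% lower with MGE maturation.

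COUP-TFs compete with retinoid receptors for shared sites and for the RXR partner. Of 16 genes of retinoid receptors and retinoic acid handling, 7 were in the table and 4 were tested, with 1, 1, 0 and 1 called in the earlier, E18.5, CGE maturation and MGE maturation comparisons. Of all genes 9.78%, 22.4%, 10.4% and 20.1% were called in these comparisons, in either direction. Rxra, the shared partner, was higher in CGE cells in the earlier comparison (0.97 ± 0.16) but not at E18.5 (-0.06 ± 0.16), a change of -1.03 ± 0.23 (SE, limma adjusted p = 0.0156). The retinoic acid receptor Rara was lower in CGE cells at E18.5 (-0.84 ± 0.17), and Crabp2, a carrier of retinoic acid, fell with MGE maturation (-1.44 ± 0.25, SE). Rxrb was called in no comparison.

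Of 7 genes for partners and co-repressors of COUP-TFs, 4 were in the table and 3 were tested. Bcl11a (CTIP1), first described as a COUP-TF interacting protein, was called lower in CGE cells in the earlier comparison (-0.50 ± 0.13) and lower with MGE maturation (-0.44 ± 0.13, SE). The first call was lost without CGE E16.5 replicates 1 or 2 or any MGE E14.5 replicate (-0.54 to -0.41, limma adjusted p from 0.0599 to 0.104), and the second without MGE E18.5 replicates 1 or 3 or any MGE E14.5 replicate (-0.49 to -0.37, limma adjusted p from 0.0555 to 0.105). Relative to the pan GABAergic genes the second turned to 0.12. Its lineage difference moved toward CGE at E18.5 by 0.83 ± 0.18 (SE, limma adjusted p = 0.0118), as did 1.85% of genes, and relative to the pan GABAergic genes the value was 0.37 and not called (limma adjusted p = 0.204). Other Bcl11a probe sets differed in which comparisons passed. Bcl11b (CTIP2) and the deacetylase Hdac3 were called in no comparison at their brightest probe set, though other Bcl11b probe sets were.

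Of 13 genes tied to COUP-TFs in developmental studies, 11 were in the table and 9 were tested. In the earlier comparison 7 of 9 were called higher in CGE cells and 0 lower, with a median log2 difference of 1.58 against 0.02 over all genes. Of all genes 5.74% were called higher and 4.04% lower. Sp8, Pax6 and Jag1 lay below the filter level on every MGE array and passed through CGE cells alone, so they had to differ and these counts and medians are descriptions. Sp8, a zinc finger factor of CGE cells, differed most (7.61 ± 0.13), followed by the homeodomain factor Prox1 (7.30 ± 0.19) and by Pax6 (4.27 ± 0.32, SE). Sp8 and Prox1 also stood among the CGE markers above. The other 4 were Jag1 (1.59), the semaphorin receptor Nrp2 (1.58), the receptor Notch1 (1.17) and Rnd2, a small GTPase of migrating neurons (0.87). Nrp2 measured 10.37, 9.91 and 10.46 in CGE E16.5 cells and 8.72, 8.60 and 8.67 in MGE E14.5 cells.

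At E18.5 the same list was split, with 4 called higher in CGE cells (Sp8, Pax6, Prox1 and Jag1) and 3 lower, and a median of -0.29 against 0.02 over all genes. Of all genes 9.58% were called higher and 12.8% lower. The limit on Sp8, Pax6 and Jag1 holds here too. Relative to the pan GABAergic genes the Jag1 value was 0.12 in place of 0.71 and was not called (limma adjusted p = 0.627), and 5 genes were called lower. That scaling moved the median E18.5 difference of all tested probe sets to -0.57, from 0.02, so these shifts are not particular to the list. The 3 lower were Hey1, a Notch target (-1.87 ± 0.39), Nrp2 (-1.38 ± 0.30) and Nrp1 (-1.03 ± 0.28, SE). Other probe sets of Nrp2 (-0.29) and Nrp1 (-0.82 and -1.02) did not pass. Nrp2 measured 7.40, 5.89 and 6.94 in CGE E18.5 cells and 8.19, 8.16 and 8.02 in MGE E18.5 cells. With CGE maturation Nrp2 (-3.50 ± 0.30), Nrp1 (-1.28 ± 0.28) and Jag1 (-1.20 ± 0.17, SE) fell, 3 of 9 called lower and 0 higher, beside 6.08% of 8795 genes.

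With MGE maturation 4 of the 9 were called higher and 0 lower, beside 11.1% of genes called higher. Prox1 rose by 4.47 ± 0.19 (SE), measuring 9.12, 8.90 and 9.04 in MGE E18.5 cells and 4.50, 4.68 and 4.47 in MGE E14.5 cells, and Hey1 (2.78), Notch1 (2.67) and Rnd2 (0.92) rose with it. These rises stood beside those of the oligodendrocyte precursor, radial glia and astrocyte, and endothelial and mural markers on the MGE E18.5 arrays, and the part of these sets was not tested. Prox1 (-4.75), Nrp2 (-2.96), Notch1 (-1.70), Rnd2 (-1.16) and Jag1 (-0.88) were the 5 of 9 called for a lineage difference that moved away from CGE at E18.5, and the values of Hey1 (-1.50) and Nrp1 (-1.28) lay in the same direction without passing. It is the direction opposite to that of Nr2f1, in which 6.75% of genes were called. Single arrays decided some of these calls: that of Jag1 was lost without any 1 of 10 arrays (all but CGE E18.5 replicate 2 and MGE E18.5 replicate 1, -0.95 to -0.70, limma adjusted p from 0.0539 to 0.110), that of Notch1 without CGE E16.5 replicate 1 or MGE E18.5 replicate 3 (-1.59 to -1.51, limma adjusted p from 0.0502 to 0.0612), and that of Rnd2 without MGE E18.5 replicate 3 (-1.07, limma adjusted p = 0.0521). The earlier calls of Notch1 (without CGE E16.5 replicates 1 or 2 or MGE E14.5 replicates 1 or 3, 0.94 to 1.24, limma adjusted p from 0.0561 to 0.0876) and Rnd2 (without CGE E16.5 replicate 1, 0.77, limma adjusted p = 0.0514) and the Nrp1 calls at E18.5 (without CGE E18.5 replicate 2 or MGE E18.5 replicates 1 or 2, -0.98 to -0.71, limma adjusted p from 0.0652 to 0.0727) and in CGE maturation (without CGE E18.5 replicate 2 or CGE E16.5 replicate 3, -1.28 to -0.95, limma adjusted p from 0.0510 to 0.0577) were lost likewise. Relative to the pan GABAergic genes the Notch1 early lineage difference (1.04, limma adjusted p = 0.0614) and the Rnd2 early lineage difference (0.74, limma adjusted p = 0.0827) were not called.

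**Figure D5:**
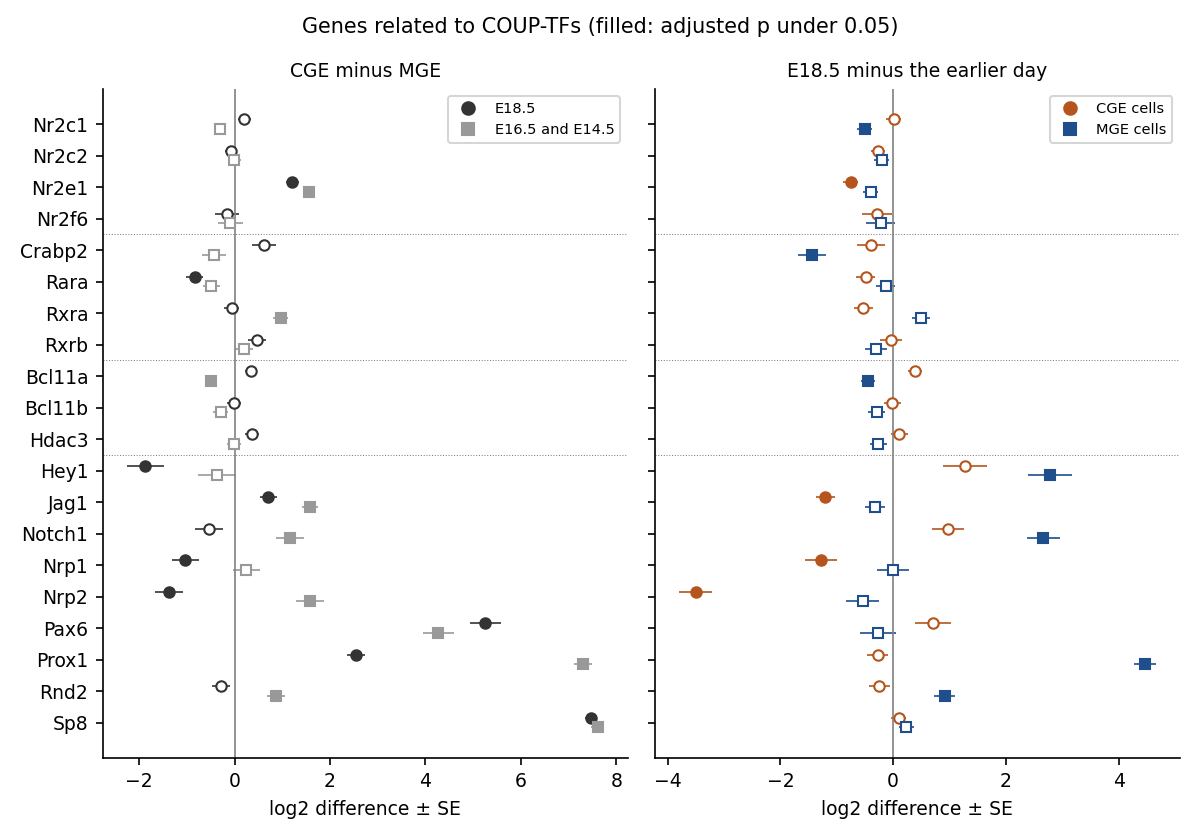
Log2 differences with SE (x axis) of 20 tested genes related to COUP-TFs (y axis), by list: other NR2 receptors, retinoid genes, partners and genes tied to COUP-TFs in development, separated by dotted lines. The left panel is CGE minus MGE and the right panel E18.5 minus the earlier day, and filled points were called at adjusted p under 0.05. Sp8 (7.61) and Prox1 (7.30) are the highest in the earlier lineage comparison, and Nrp2 (-3.50) is the lowest in CGE maturation.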

How the data were processed

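RNA of cells sorted from embryonic cortex, extracted with RNeasy columns and amplified with the NuGEN Ovation Pico system, was hybridised to 12 Affymetrix whole-genome mouse arrays, 3 for each of 4 groups. The authors background-corrected and normalised the arrays in Bioconductor and deposited 1 log2 intensity per probe set. The submitters' processing notes name MAS5 with no version, so which normalisation made the values is not settled, and no detection calls were used. The table held 27094 probe sets with array medians of 7.75 to 7.81. By the platform annotation, 22339 had 1 gene symbol, 571 several and 4150 none.

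Probe sets above the 40th percentile of their own array on at least 3 of 12 arrays were kept (16008, for 8795 genes). limma 3.58.1 in R 4.3.3 fitted 1 mean per group over all 12 arrays, with 8 residual degrees of freedom, and p-values were adjusted by Benjamini-Hochberg over the 16008 probe sets within each comparison. A call is an adjusted p under 0.05. A gene is represented by its kept probe set of highest mean. Differences between both genes were tested by exact permutation (scipy 1.17.1). Every probe set of Nr2f1 and Nr2f2 is reported. From each gene list, up to 3 called genes with the largest differences per comparison are named, and all that lists of 6 or fewer need. In the list tied to COUP-TFs the called genes past the third were added after their values were seen, as were the probe sets of genes with disagreeing probe sets. Genes of like pattern are the 5 with the highest Pearson r. The members and lists were chosen with earlier results of these data known. The fit was tested on simulated data. Promoter windows and neighbouring genes came from RefSeq tables of GRCm38.p6. Alternatives covered the filter, normalisation, array weights, the samples fitted, a replicate block and leaving out each array, and 2 more were added after seeing the data: values relative to 7 pan GABAergic genes, and leaving out 2 CGE arrays with most lateral eminence signal. No batch is given in the labels, and p-values measure the spread between these arrays.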

Additional observations from a re-analysis of the deposited data

Results flagged for a closer look

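The change of the lineage difference between the earlier days and E18.5 passed the test of the difference itself for 3 COUP-TF probe sets. The earlier comparison differs in day as well as lineage, so the interval to E18.5 was longer in MGE than in CGE cells. The change cannot be told apart from this longer interval. The CGE minus MGE difference was 0.71 larger at E18.5 on the log2 scale for Nr2f1 1418157_at. For the Nr2f2 probe sets 1436475_at and 1444229_at the change was -1.80 and -1.41, a smaller difference at E18.5. These 2 exceeded the filter level in CGE E16.5 cells alone, with MGE values of at most 5.16, so the group that admitted them bears on the change and it is given as a description. The 1444229_at call was also lost without any 1 of 9 arrays, which were CGE E18.5 replicates 1 and 2, CGE E16.5 replicate 2, and all MGE E18.5 and MGE E14.5 replicates (-1.49 to -1.13, limma adjusted p from 0.0547 to 0.0973). For Nr2f1 the age difference was -0.46 in CGE and -1.17 in MGE cells, for 1436475_at it was -2.69 in CGE and -0.89 in MGE cells, and for 1444229_at it was -1.72 in CGE and -0.31 in MGE cells. Groups of 3 arrays were too small for a search for outlying arrays.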

How the results depend on the processing

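Nr2f2 1416158_at kept its 4 calls and its direction under every alternative tried, from 2.67 to 2.89 (earlier), 1.96 to 2.68 (E18.5), -1.09 to -0.91 (CGE maturation) and -0.90 to -0.22 (MGE maturation), except that the last was not called relative to the pan GABAergic genes (-0.22). Under that scaling, added after seeing the data, the values for Nr2f1 were 0.33 in the earlier comparison, -0.36 in CGE maturation and 0.25 for the change of the lineage difference, none of them called, and 1444229_at in MGE maturation (0.25), Nr2c1 (0.056) and Bcl11a (0.12) turned in sign. The Nr2f1 calls at E18.5 and in MGE maturation were kept under all alternatives. Its earlier call was lost with MGE E14.5 replicates 1 and 2, the closest arrays of a group (SD of log2 differences 0.231), averaged (0.45), and leaving out single arrays gave 0.44 to 0.49. Its CGE maturation call was lost with array weights, with only the groups compared and with those replicates averaged (-0.46 each) and without the 2 CGE arrays of most lateral eminence signal (-0.41), and leaving out single arrays gave -0.52 to -0.39. Its change of the lineage difference was lost with the averaged replicates (0.72), and single arrays gave 0.62 to 0.81. The cause was not tested. Between arrays of the same number, deviations from the group means correlated at a mean r of 0.033 (-0.125 to 0.273). Between arrays of different numbers the mean r was -0.016 (-0.295 to 0.233). Of 12 arrays, 6 correlated best with an array of their own number. Whether the numbers stand for a shared batch is not stated in the labels and cannot be told from these values. With a replicate block, the Nr2f1 calls in the earlier comparison (0.46, limma adjusted p = 0.0556) and in CGE maturation (-0.46, limma adjusted p = 0.0544) were lost.

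Counts of probe sets called higher and lower depended on the fit. In the earlier comparison 877 and 667 were called, 1659 and 1531 with array weights, 558 and 388 with the averaged replicates, 563 and 377 without MGE E14.5 replicate 1, 560 and 401 without replicate 2, and 497 higher relative to the pan GABAergic genes. At E18.5 1547 and 2077 were called, with 1025 higher without MGE E18.5 replicate 3 and 351 and 9969 relative to the pan GABAergic genes. In CGE maturation 619 and 1011 were called, 383 and 477 with array weights, 74 and 114 with only the groups compared, 215 and 339 without CGE E16.5 replicate 3, 250 and 448 without CGE E18.5 replicate 2, and 349 lower relative to the pan GABAergic genes. In MGE maturation 1642 and 1469 were called, 2656 and 3687 with array weights, 8148 and 160 relative to the pan GABAergic genes, and 726 to 928 lower without MGE E14.5 replicate 1 or 2 or MGE E18.5 replicate 1 or 3. For the change of the lineage difference 416 and 1064 were called, 128 and 3484 relative to the pan GABAergic genes, and 172 to 227 higher without MGE E14.5 replicate 1 or 2, CGE E16.5 replicate 3 or MGE E18.5 replicate 3. Low signal limits 1431237_at, 1436475_at and 1444229_at, and in MGE E18.5 cells also 1416159_at and 1416160_at.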
